A study of Mus musculus with 75 samples.

Results

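The folding of chromosomes in early G1 was compared with that in ana/telophase, using the domains, loops and stripes that the authors called from Hi-C contact maps. The members were every domain, loop and stripe in the early-G1 and ana/telophase lists. They came to 14741 of the 38435 domains, 7937 of the 29075 loops and 2060 of the 5598 stripes listed over the 5 stages of the series. The maps came from 4 of its 75 samples, with 2 early-G1 replicates and 2 ana/telophase replicates. Domain boundaries were matched within 20 kb, and a loop was matched to a loop of the other list whose anchors were both no more than 20 kb from its own. A feature with a match in both stages is called kept, one listed in early G1 without a match is called gained, and one listed in ana/telophase without a match is called lost.

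Both groups were G1E-ER4 cells, a mouse immature erythroid line of strain 129 derived from cells that lack the transcription factor GATA1. Both had been held in pro-metaphase with nocodazole, a microtubule drug, at 200 ng/ml for 7 to 8.5 h and then released. Early-G1 cells were taken 60 min after release, and each in situ Hi-C experiment used 10000000 sorted cells. Ana/telophase cells were taken 25 min after release, with 5000000 sorted cells for each experiment. A single drug-released line stands here for the exit from mitosis. The folding lists hold no expression values, so the cell type could not be checked against marker genes.

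Each list pools both replicates of its stage, so no value below has a spread between replicates, and no test between the stages could be made. Intervals in brackets are 95% intervals, exact binomial for shares and from order statistics for medians; they cover counting error only, and features that overlap or share an anchor are not independent. The read depth behind each list is unknown. A feature missing from the ana/telophase list was not called there, and too little depth and absence cannot be told apart.

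Topologically associating domains are stretches of chromosome whose loci contact each other more often than loci outside. Loops join a pair of anchors, most often sites bound by CTCF that halt the ring-shaped cohesin complex, of which Rad21 is a subunit. Stripes are lines in a contact map that run from 1 anchor along the neighbouring chromatin, as when cohesin is held at the anchor while it extrudes DNA on the other side. These structures are largely dissolved in mitotic chromosomes and are rebuilt as cells enter G1.

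Most ana/telophase boundaries, loops and stripes, and 47.8% of the domains, were found again in early G1, while early G1 held many more features than ana/telophase. As a ratio of counts, the gap was narrowest for boundaries and widest for loops. Early G1 had 11635 boundaries, against 7414 in ana/telophase. It had 9210 domains, against 5531 in ana/telophase. It had 7029 loops, against 908 in ana/telophase. It had 1753 stripes, against 307 in ana/telophase. Loops and stripes, with short ana/telophase lists, were kept in over 80% of cases, and boundaries and domains less often.

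**Figure D1:**
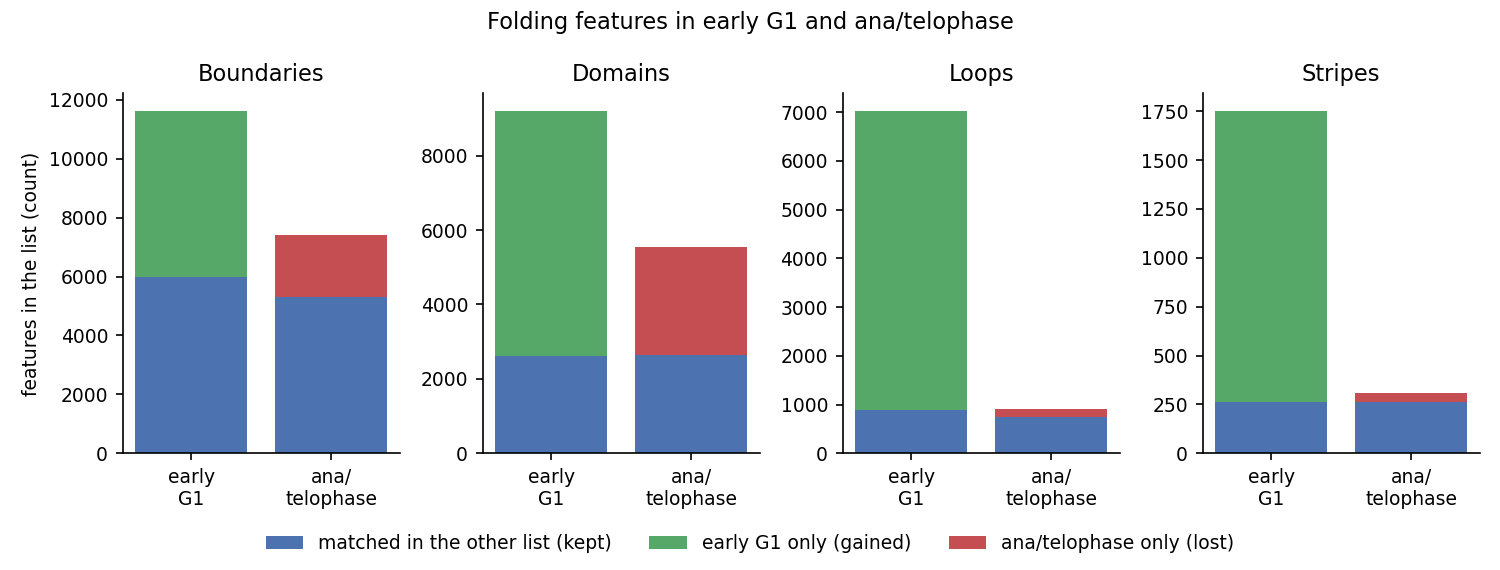
Number of boundaries, domains, loops and stripes in the early-G1 list and the ana/telophase list (count, a separate axis for each kind of feature, all from 0), divided into features matched in the other list and features of 1 list only. The gained part fills most of the early-G1 bar for loops (6135 of 7029) and stripes (1493 of 1753), and less of it for boundaries (5634 of 11635).

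Of the early-G1 boundaries, 6001, or 51.6% [50.7 to 52.5], had already been listed in ana/telophase, and 5634 were gained. Of the ana/telophase boundaries, 5312, or 71.6% [70.6 to 72.7], were kept in early G1, and 2102 were lost. Of all 10 kb bins, 11.8% lay within 20 kb of an ana/telophase boundary and 17.2% lay within 20 kb of an early-G1 boundary. Both shares of boundaries were thus several times those of bins in general. The nearest early-G1 boundary was in the same bin for 2607 ana/telophase boundaries, 10 kb away for 1968 and 20 kb away for 737. A further 394 and 240 lay 30 kb and 40 kb away, just outside the limit, and 957 lay over 100 kb away. Lost boundaries were therefore a mixture of small displacements and positions with nothing near them.

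Boundaries that more domains shared were kept more often. A boundary at 1 domain end was kept in 68.5% of cases, one at 2 ends in 72.4%, one at 3 ends in 89.7%, and one at 4 or more ends in 94.7%, or 180 of 190. Kept boundaries also served as more domain ends in early G1, with a mean of 1.74 ends per kept early-G1 boundary and 1.41 per gained one. In ana/telophase the means were 1.55 ends per kept boundary and 1.33 per lost one. Kept boundaries thus bounded more domains in both stages.

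Domains were larger, more numerous and more deeply nested in early G1. Their median size was 350 kb in early G1 (quartiles 230 to 560 kb), against 290 kb in ana/telophase (220 to 410 kb). Early-G1 domains covered 1794 Mb, against 1164 Mb in ana/telophase. The share of domains that lay in no larger domain of their own list was 42.3% in early G1, against 59.0% in ana/telophase. At the other end, 1.73% of early-G1 domains lay in 5 or more larger ones, against 0.362% in ana/telophase. A domain held a smaller one in 43.1% of cases in early G1, against 32.2% in ana/telophase.

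Fewer domains than boundaries were matched, because both ends must match. Of the early-G1 domains, 2618, or 28.4% [27.5 to 29.4], had already been listed in ana/telophase, and 6592 were gained. Of the ana/telophase domains, 2645, or 47.8% [46.5 to 49.1], were kept in early G1, and 2886 were lost. Gained domains had a median of 360 kb [360 to 370], kept domains 330 kb [320 to 340] in both stages, and lost domains 260 kb [250 to 260]. Lost domains were thus the smaller ones of ana/telophase, and the large ones of early G1 were mostly gained. Domains of at least 800 kb made up 15.5% of gained domains and 6.03% of lost ones.

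Among ana/telophase domains, the share kept was 27.6% at 160 to under 200 kb, 47.0% at 200 to under 400 kb, 62.9% at 400 to under 800 kb and 56.1% at 800 kb or more. In early G1 the share already listed in ana/telophase was 19.9%, 35.8%, 26.6% and 18.0% over the same 4 size classes. In ana/telophase the smallest domains had the lowest share, and in early G1 both the smallest and the largest had low shares. The class from 200 to under 400 kb was the part of the early-G1 list most often listed before.

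**Figure D2:**
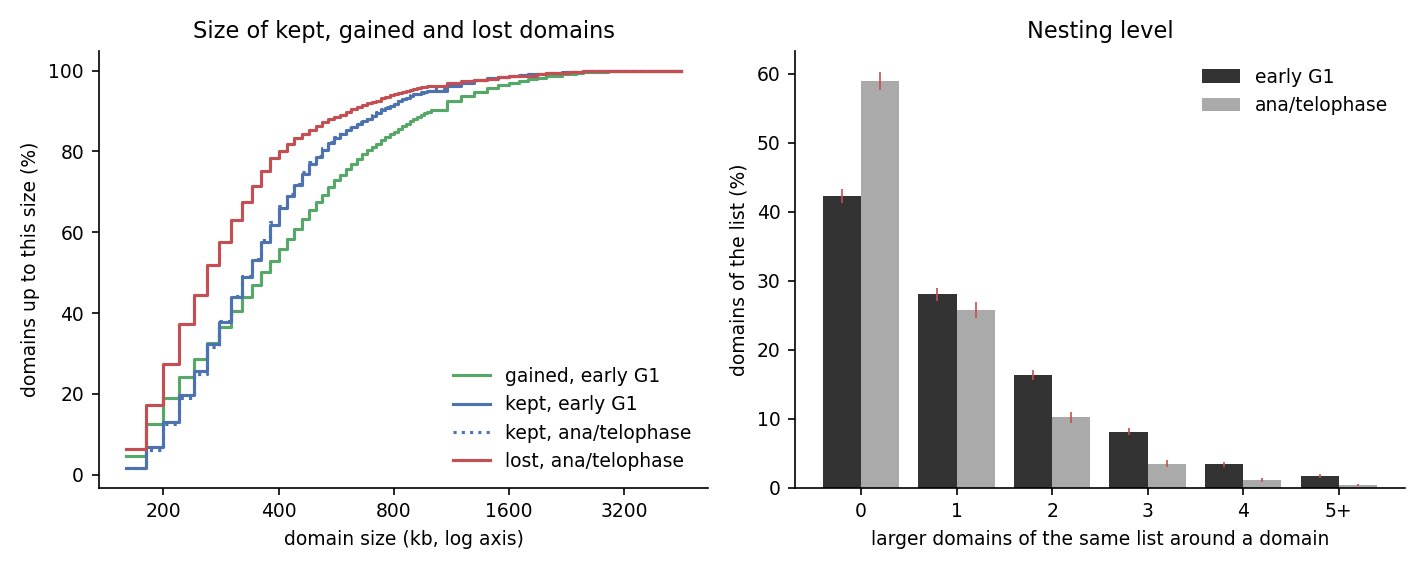
Left, cumulative share (%) of gained and kept early-G1 domains and of kept and lost ana/telophase domains up to each size (kb, log axis); the lost curve lies to the left (median 260 kb) and the gained curve to the right (median 360 kb). Right, share (%) of the domains of each stage by the number of larger domains of the same list around them, with exact 95% binomial intervals as lines; 42.3% of early-G1 domains lie in no larger domain, against 59.0% in ana/telophase.

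Domains that did not match as a whole often shared 1 end. Of the gained early-G1 domains, 15.2% had both ends at ana/telophase boundaries, 48.8% had 1 and 36.1% had none, with median sizes of 580, 380 and 270 kb. Of the lost ana/telophase domains, 21.7% had both ends at early-G1 boundaries, 59.5% had 1 and 18.9% had none, with median sizes of 380, 250 and 210 kb. In both stages the larger domains reused more ends of the other list. Gained domains with both ends at ana/telophase boundaries were new pairings of boundaries listed before.

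The position of gained domains relative to ana/telophase domains was varied. Of the gained early-G1 domains, 31.9% overlapped no ana/telophase domain and had a median size of 260 kb. A further 28.4% enclosed 1 or more ana/telophase domains and lay in none, with a median of 610 kb. Those that lay inside an ana/telophase domain and enclosed none made up 18.3%, with a median of 250 kb. Another 8.24% did both, and 13.1% crossed the end of an ana/telophase domain. In all, 36.6% of gained domains enclosed an ana/telophase domain and 26.6% lay inside one. Both totals count the 8.24% that did both. Among the separate classes, domains in stretches without an earlier one were most frequent. Those only around and those only inside earlier domains followed.

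Lost domains lay inside a domain of the other list more often than gained ones did. Early-G1 domains also covered more, with 1794 Mb, against 1164 Mb in ana/telophase. No share for domains of like size placed elsewhere was computed, so these shares have no genome level beside them. Of the lost ana/telophase domains, 49.3% lay inside an early-G1 domain and enclosed none, with a median of 240 kb. With those that lay inside one and also enclosed one, 68.0% lay inside an early-G1 domain, and 9.49% overlapped none. Those that enclosed an early-G1 domain and lay in none made up 12.8%. Kept domains also moved down in the nesting. Among 1693 kept domains with a single partner in each list, 41.4% had more larger domains around them in early G1 than in ana/telophase, 46.4% had the same number and 12.2% had fewer.

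Mergers outnumbered splits, but the 2 were similar as shares of the gained and of the lost domains, and gained domains were the more numerous. An early-G1 domain was counted as merged if it was gained and was tiled end to end by at least 2 ana/telophase domains, and an ana/telophase domain as split if it was lost and so tiled by early-G1 domains. There were 299 mergers (4.54% of gained domains), against 120 splits (4.16% of lost domains), which gave 2.49 mergers per split. Merged early-G1 domains had a median of 620 kb, and split ana/telophase domains 740 kb. Mergers joined 2 pieces in 245 cases and 3 or more in 54. Splits gave 2 pieces in 105 cases and 3 or more in 15. With a limit of 10 kb the mergers numbered 194 and the splits 107, and with 40 kb there were 443 mergers and 111 splits.

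The pieces often remained as domains. In 120 mergers every piece was still an early-G1 domain, so the merged domain was an added layer above them. In 82 mergers some pieces were still listed, and in 97 none was. Of the splits, 42 had only pieces that were ana/telophase domains already, 48 had kept and gained pieces, and 30 had only gained ones. A further 177 ana/telophase domains, 6.69% of those kept, were subdivided, which means kept with at least 2 separate gained domains inside. They had a median of 880 kb. At least 1 gained domain lay in 24.6% of kept ana/telophase domains. In the other direction, at least 1 lost domain lay in 24.1% of kept early-G1 domains, so inner domains were lost about as widely as they were gained.

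The longest merger lay on chromosome 3 (chr3:134880001-137420000, build mm9, 2540 kb). Its 3 pieces were ana/telophase domains that met at positions 135550000 and 136610000, and all 3 were still early-G1 domains. It held 12 early-G1 loops, against 2 ana/telophase loops, and was found again in mid G1 and late G1. The merger at chr2:168060001-170350000 (2290 kb) also had 3 pieces, of which none was still listed. The third longest, at chr15:96290001-98340000 (2050 kb), had 3 pieces that were all still listed, with 13 early-G1 loops, against 0 in ana/telophase.

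The longest split was that of chr18:34470001-36970000 (2500 kb), which early G1 divided into 3 pieces at positions 35100000 and 35720000. The first 2 pieces were gained and the third had been an ana/telophase domain. The interval held 23 early-G1 loops, against 2 in ana/telophase. The split of chr8:107680001-110130000 (2450 kb) also gave 3 pieces, with 2 of them kept and the last gained, and 23 early-G1 loops, against 1 in ana/telophase. The split of chr12:109340001-111650000 (2310 kb) gave 2 gained pieces that met at position 110130000. The split domains on chromosomes 18 and 8 held many domains in both stages, with 9 early-G1 domains, against 14 ana/telophase domains, on chromosome 18 and 9 of each stage on chromosome 8. The split domain on chromosome 12 held 12 early-G1 domains, against 3 ana/telophase domains.

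Among other domains chosen by length, chr1:141390001-144920000 (3530 kb) was kept and held 13 early-G1 domains, against 9 ana/telophase domains. The longest kept domain, chr10:122640001-126330000 (3690 kb), was also subdivided, with 3 gained domains inside. Its ana/telophase match held 3 domains of each stage. The longest gained domain was chr5:130750001-134630000 (3880 kb), which held 7 early-G1 domains, against 2 ana/telophase domains. The longest lost domain was chr4:60070001-64540000 (4470 kb), which held 5 domains of each stage. The lost domain chr14:43280001-47400000 (4120 kb) held 20 early-G1 domains, against 5 in ana/telophase. The deepest nesting was at chr18:76630001-76810000, a 180 kb domain that lay in 10 larger early-G1 domains, the outermost of them chr18:75790001-77390000.

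Loops differed from domains in that few of those in early G1 had been listed before. Of the early-G1 loops, 894, or 12.7% [11.9 to 13.5], had already been listed in ana/telophase, and 6135 were gained. Of the ana/telophase loops, 734, or 80.8% [78.1 to 83.3], were kept in early G1, and 174 were lost. Among pairs of 20 kb windows 30 to 500 kb apart, 3.70% matched an early-G1 loop by the same rule, and at distances nearer to those of most ana/telophase loops the share was 7.38% at 70 kb, 8.08% at 100 kb and 7.08% at 150 kb. The matches were close. For 673 ana/telophase loops the nearest early-G1 loop had both anchors overlapping theirs, 44 and 17 had the farther anchor 10 and 20 kb away, and 21 and 19 lay just outside the limit, at 30 and 40 kb. More than 1 early-G1 loop matched in 255 of the kept loops. The shares depend on the lengths of the lists. With only as many early-G1 loops as there were ana/telophase loops, taken by smallest p-value, 40.1% of early-G1 loops had already been listed and 45.7% of ana/telophase loops were kept.

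Gained loops spanned longer distances. The median distance between anchors was 150 kb [150 to 160] for gained early-G1 loops, 120 kb [110 to 120] for kept loops in early G1, 110 kb [110 to 120] for kept loops in ana/telophase and 70 kb [60 to 80] for lost loops. The share of early-G1 loops already listed in ana/telophase was 17.9% under 100 kb, 13.8% at 100 to under 200 kb, 7.25% at 200 to under 400 kb and 5.79% at 400 kb or more. The share of ana/telophase loops that were kept was 72.3%, 92.9%, 80.6% and 60.9% over the same classes. Long loops of early G1 were thus the ones least often listed before. Median expected contact in ana/telophase was 16.4 for loops of 50 kb and 4.41 for loops of 200 kb. Whether fewer contacts at long distances limited the calls was not tested.

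**Figure D3:**
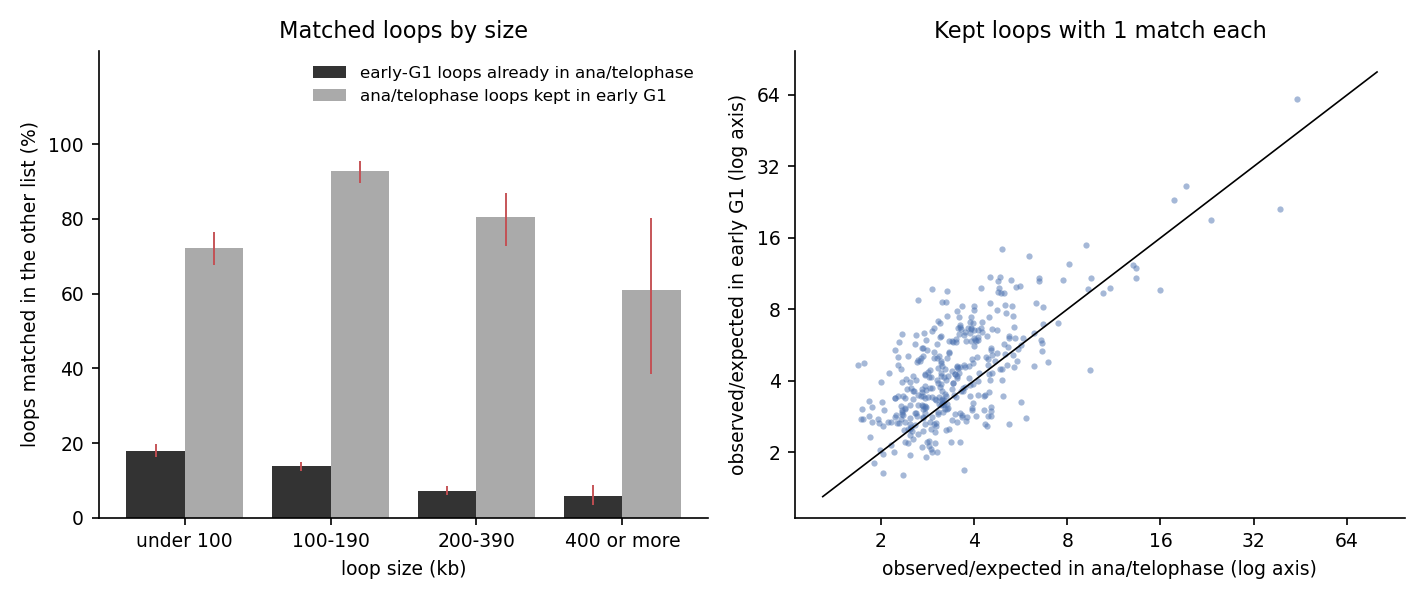
Left, share (%) of early-G1 loops already listed in ana/telophase and of ana/telophase loops kept in early G1, by loop size (kb), with exact 95% binomial intervals as lines; the first share falls to 5.79% at 400 kb or more. Right, observed/expected contact ratio in early G1 (log axis) against that in ana/telophase (log axis), 1 point for each of the 372 loops with a single match in both lists; the line marks equal values, and 71.5% of points lie above it.

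The observed/expected ratio of a loop was its deposited observed contact divided by its deposited expected contact. Among 372 loops that were each other's only match, the median ratio was 4.16 [3.87 to 4.47] in early G1, against 3.27 [3.15 to 3.47] in ana/telophase. It was higher in early G1 for 71.5% of them. It was at least 1.5 times higher in early G1 for 32.3% and at least 1.5 times lower for 4.03%. The median observed contact was 49.8 in early G1, against 27.7 in ana/telophase, and the median expected contact was 11.1 in early G1, against 8.55 in ana/telophase. Both terms were thus higher in early G1, and how the contacts of the 2 stages were scaled is not given, so the size of this difference depends on that scaling.

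The difference in ratio varied with size. For matched loops under 100 kb the median ratio was 3.33 in early G1, against 2.83 in ana/telophase. At 100 to under 200 kb it was 5.01 in early G1, against 3.52 in ana/telophase, and 79.7% were higher in early G1. At 200 kb or more it was 5.87 [4.60 to 6.73] in early G1, against 4.93 [4.45 to 5.28] in ana/telophase, and 63.8% were higher in early G1. Over all loops of a list, which differ in number between the stages, those of exactly 100 kb had a median ratio of 2.87 in early G1, against 3.21 in ana/telophase. Matched loops thus mostly had higher ratios in early G1, with the scaling unknown, and at 200 kb or more the intervals overlapped. The median over all loops of exactly 100 kb was lower in early G1.

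Kept loops were the stronger part of the early-G1 list. Their median ratio there was 3.77, against 3.34 for gained loops. Called clusters of more than 3 pixels made up 58.1% of kept loops in early G1, against 40.8% of gained ones. When early-G1 loops were put into 4 equal classes by deposited p-value, 30.0% of the class with the smallest p-values had already been listed in ana/telophase, against 4.72% of the class with the largest. In ana/telophase, kept loops had a median ratio of 3.39 and lost loops 3.06, but other measures went the other way there. The median observed contact was 27.0 for kept and 35.3 for lost loops, and the expected contact was 7.83 and 10.9. Of the ana/telophase class with the smallest p-values, 78.4% [72.5 to 83.6] were kept, against 85.0% [79.7 to 89.4] of the class with the largest.

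A minority of gained loops used an anchor of an ana/telophase loop. The ana/telophase list had 1551 distinct anchors, against 8775 in early G1, which limits such reuse. Of the gained early-G1 loops, 22.0%, or 1348, had at least 1 anchor within 20 kb of an ana/telophase loop anchor, and 2.80%, or 172, had both. The share with both is limited by the matching rule, since a loop near both anchors of 1 ana/telophase loop counts as kept. Of single 20 kb windows, 4.69% lay so near, and of window pairs 150 kb apart, 7.88% had at least 1 window that did. With overlap of the anchors required, 13.4% of gained loops reused 1 or both. Reuse within 20 kb was above the genome level, while most gained loops had both anchors elsewhere. Gained loops with 1 reused anchor had a median distance of 180 kb, against 150 kb for those with none.

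Anchors in early G1 took part in more loops. There were 8775 distinct anchors in early G1, with a mean of 1.60 loops each, against 1551 in ana/telophase, with a mean of 1.17. Overlapping anchors of a list were joined for these counts. A joined anchor is wider, so it can hold more loops and more easily overlap an anchor of the other list. At least 3 loops met at 14.6% of early-G1 anchors, against 2.58% of ana/telophase anchors. Early-G1 anchors that overlapped an ana/telophase anchor had a mean of 2.07 early-G1 loops, and the others 1.52. Listed loops were also more often nested, since 51.4% of early-G1 loops lay inside a longer one of their list, against 18.7% in ana/telophase. A longer list leaves more room for shared anchors and for nesting, and early G1 had 7029 loops, against 908. Lists of equal length were not compared for these measures, so a change in loop arrangement cannot be told apart from list length. Gained loops held an ana/telophase loop inside them in 7.35% of cases, lay inside one in 4.14%, and did neither in 88.6%.

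Domains that were kept had more loops at their corners in early G1 than gained domains had. A loop of the same stage joined both ends of 14.5% of kept early-G1 domains, 5.23% of gained ones, 0.945% of kept ana/telophase domains and 1.39% of lost ones. For kept domains that was 379 of 2618 in early G1, against 25 of 2645 in ana/telophase. A gained loop stood at 13.3% of kept early-G1 domains. Of window pairs, 2.41% of those 300 kb apart and 7.08% of those 150 kb apart matched an early-G1 loop. No such share is given here for ana/telophase loops. The early-G1 loop list was also longer, with 7029 loops, against 908 in ana/telophase. Most early-G1 corner loops of kept domains were gained loops, as were most early-G1 loops in general. Merged domains had a corner loop in 6.02% of cases.

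The kept loop with the highest ana/telophase ratio joined chr10:21880001-21910000 to chr10:22060001-22090000, with a ratio of 42.9 in early G1, against 48.3 in ana/telophase. The next lay on chromosome 12 and joined chr12:18250001-18280000 to chr12:21570001-21600000, at 61.8 in early G1, against 44.3 in ana/telophase. At 3320 kb it was also the longest kept loop. The next joined chr1:175220001-175240000 to chr1:176230001-176250000, at 52.4 in early G1, against 42.2 in ana/telophase. These 3 loops also matched loops of the pro-metaphase list, which holds 84 loops in all. In both stages a CTCF peak lay at the upstream anchor only of the chromosome 10 loop, and at neither anchor of the loops on chromosomes 12 and 1.

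Among gained loops, the highest ratio, 168 in early G1, belonged to a loop that joined chr3:28760001-28780000 to chr3:31580001-31600000, and at 2830 kb it was also the longest gained. It matched loops in pro-metaphase, mid G1 and late G1, so ana/telophase alone did not list it. The next joined chr4:112330001-112360000 to chr4:112420001-112450000, with a ratio of 29.3. Among lost loops, the highest ratio, 166 in ana/telophase, belonged to a loop that joined chr4:113090001-113120000 to chr4:113940001-113960000, and a match was listed again in late G1. The longest lost loop joined chr12:18300001-18320000 to chr12:21580001-21600000 (3270 kb) and missed the limit by a single bin, since its nearest early-G1 loop lay 30 kb away. The gained loop on chromosome 3 and the longest lost loop were thus listed in stages on either side. The other gained loop and the lost loop with the highest ratio had no match in pro-metaphase. The gained and the lost loop with the highest ratio had no CTCF or Rad21 peak at either anchor in either stage. Their expected contacts were low, at 0.442 in early G1 for the gained loop and 2.48 in ana/telophase for the lost one.

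The anchor with the most gained loops was chr12:80680001-80730000, with 10 gained loops of 100 to 520 kb and early-G1 ratios of 2.33 to 9.65, and no ana/telophase loop. The anchor at chr10:21680001-21740000 had 9 gained loops of 120 to 620 kb, all to upstream positions. The anchor at chr14:27470001-27590000 had 9 as well, of 130 to 320 kb. No ana/telophase loop was listed at any of these 3 anchors. An ana/telophase CTCF peak lay in each of them, with 1 peak in the first, 6 in the second and 3 in the last.

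Stripes behaved like loops in number. Of the early-G1 stripes, 14.8% [13.2 to 16.6] had an ana/telophase stripe of the same direction on an overlapping anchor, and 1493 were gained. Of the ana/telophase stripes, 260, or 84.7% [80.2 to 88.5], were kept, and 47 were lost. Horizontal and vertical stripes were nearly even, with 878 and 875 in early G1, against 150 and 157 in ana/telophase. The early-G1, mid-G1 and late-G1 lists were almost equal in length, and 93.3% of early-G1 anchors were found in mid G1. The sources used here do not say whether stripes of the G1 stages were called separately, so a stripe gained in early G1 may have been listed from a later stage.

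Kept stripes were longer and stronger in early G1. Their median length was 310 kb in early G1, against 220 kb in ana/telophase. Pair by pair, the median difference was 50 kb [30 to 70], with 71.5% longer and 23.5% shorter in early G1. The far end of the stripe body lay a median of 20 kb farther from the anchor in early G1, and the near end differed by a median of -25 kb, which means nearer to it. The deposited strength, an observed/expected ratio, was 1.14 times as high in early G1 in the median pair, and higher in 75.8% of pairs. Gained stripes had a median length of 270 kb, and lost ones 190 kb.

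Stripe anchors coincided with loop anchors far more often than windows of the genome did, in both stages. The stripe anchor lay on a loop anchor of its own stage for 88.1% of kept early-G1 stripes, 81.6% of gained ones, 26.2% of kept ana/telophase stripes and 27.7% of lost ones. Of 20 kb windows, 12.7% overlapped an early-G1 loop anchor and 1.97% an ana/telophase loop anchor, so the higher shares in early G1 went with a longer loop list. Of the gained stripe anchors, 12.9% lay on an ana/telophase loop anchor and 44.6% lay near an ana/telophase boundary, both above the 1.97% of windows and the 11.8% of bins. The longest gained stripes were horizontal, with anchors at chr14:97340001-97370000 (1830 kb), chr15:61810001-61830000 (1680 kb) and chr16:85790001-85830000 (1120 kb), and all 3 anchors held CTCF and Rad21 peaks in both stages. The 3 longest kept stripes went against the general direction. The horizontal stripe anchored at chr11:116600001-116620000 was 380 kb long in early G1, against 860 kb in ana/telophase, and the rule for naming them used their ana/telophase length.

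Peaks of CTCF and Rad21 were compared at the same places, since they had been called in both stages. CTCF had 33815 peaks in early G1, against 33127 in ana/telophase, and 86.3% of early-G1 peaks overlapped an ana/telophase peak. Rad21 had 8694 peaks in early G1, against 7995 in ana/telophase, and 66.4% of early-G1 peaks overlapped an ana/telophase peak. Peak numbers were thus close between stages whose numbers of loops were far apart. The peak lists, however, were made from merged and downsampled replicates, per the peak names. The loop lists have an unknown read depth, and Hi-C used fewer cells in ana/telophase than in early G1. Whether this unlike processing accounts for the contrast was not tested.

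Gained loops already had CTCF peaks at their anchors in ana/telophase about as often as kept loops. An ana/telophase CTCF peak lay at both anchors of 60.5% of gained early-G1 loops, 58.4% of kept early-G1 loops and 46.6% of lost ana/telophase loops. For Rad21 the shares were 23.3% of gained, 30.6% of kept and 17.2% of lost loops. At the anchors that kept loops had in ana/telophase, the shares were 51.6% for CTCF and 23.3% for Rad21. Of 20 kb windows, 19.3% held an ana/telophase CTCF peak and 5.75% an ana/telophase Rad21 peak. Both windows of a pair 150 kb apart held CTCF in 6.20% of pairs and Rad21 in 0.653%. Gained loops thus stood far above the windows for both proteins. For CTCF the share of kept loops was below that of gained ones at either set of anchors (58.4% or 51.6%, against 60.5%). For Rad21 it was above that of gained loops at the early-G1 anchors and equal to it at the ana/telophase anchors.

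**Figure D4:**
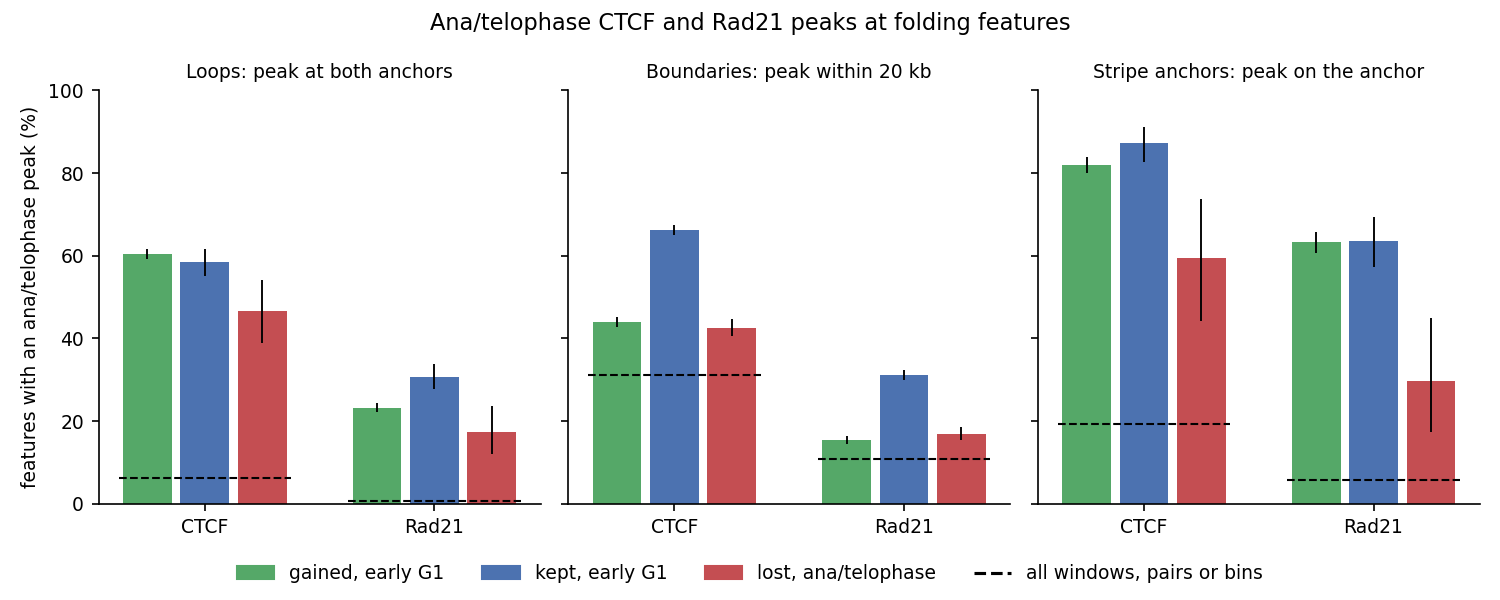
Share (%) of gained and kept early-G1 features and of lost ana/telophase features that carry a CTCF or Rad21 peak of ana/telophase, at both loop anchors (left), within 20 kb of the boundary (middle) or on the stripe anchor (right), with exact 95% binomial intervals as lines. Dashed lines give the same share for pairs of 20 kb windows 150 kb apart (left), 10 kb bins (middle) and 20 kb windows (right); for boundaries, CTCF stands at 66.3% of kept and 43.9% of gained ones.

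Some anchors of gained loops had peaks in early G1 alone. Both proteins lay at both anchors in early G1 in 1987 gained loops, or 32.4%. Of these, 63.7% already had both proteins at both anchors in ana/telophase. A further 32.5% had CTCF at both anchors in ana/telophase without Rad21 at both, and 3.82% lacked CTCF at 1 or both anchors. For most loops of this kind the peaks were therefore listed before the loop, and where a peak was missing it was mainly Rad21.

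The share of early-G1 loops that had already been listed varied with ana/telophase occupancy. It was 16.2% with both proteins at both anchors, 9.82% with CTCF at both but Rad21 not at both, 11.2% with CTCF at 1 anchor and 18.9% with CTCF at neither. Loops with both proteins had already been listed in 22.6% of cases at 100 to under 200 kb, against 4.58% at 400 kb or more. The relation to occupancy was thus not a steady one, and loops without CTCF, which were shorter (median 110 kb, against 160 kb with both proteins), were listed early as well. Of early-G1 loops, 16.3% of kept and 10.2% of gained ones had an ana/telophase CTCF peak at neither anchor.

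Boundaries showed another pattern. An ana/telophase CTCF peak lay within 20 kb of 66.3% of kept early-G1 boundaries, 43.9% of gained ones and 42.6% of lost ana/telophase boundaries. A Rad21 peak of ana/telophase lay near 31.1% of kept, 15.4% of gained and 16.9% of lost ones. Of 10 kb bins, 31.2% had an ana/telophase CTCF peak within 20 kb and 10.7% a Rad21 peak. Gained and lost boundaries were thus alike in this respect and closer to the genome level than kept ones. Stripe anchors carried ana/telophase CTCF in 87.3% of kept, 82.0% of gained and 59.6% of lost cases, and Rad21 in 63.5% of kept, 63.2% of gained and 29.8% of lost cases. Anchors of ana/telophase stripes were narrower, with a median of 10 kb, against 20 kb in early G1, and at the ana/telophase anchors of kept stripes the shares were 73.5% for CTCF and 43.5% for Rad21.

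Kept boundaries and domains were matched in pro-metaphase more often than kept loops, few gained features were, and gained loops were matched later in G1 more often than gained domains. Kept domains were matched in 19.6% of cases in pro-metaphase and kept loops in 10.1%. The pro-metaphase list held only 84 loops, against 2509 domains, so few kept loops could match. These shares therefore cannot be compared directly between kinds of feature, and no genome level is given here for loops or domains. In the order pro-metaphase, mid G1 and late G1, kept boundaries were matched in 38.2%, 87.0% and 85.9% of cases, gained ones in 8.57%, 64.0% and 63.1%, and lost ones in 24.3%, 26.6% and 26.8%. Of all 10 kb bins, 6.73% had a pro-metaphase boundary no more than 20 kb away and 18.6% had a mid-G1 boundary so near. Gained boundaries were thus close to the level of bins in pro-metaphase. Gained domains were matched in 2.67%, 51.7% and 48.0% of cases, and merged ones in 1.00%, 66.9% and 62.5%. Gained loops were matched in 0.114%, 89.2% and 91.0%. Lost loops were matched again in mid G1 in 29.9% of cases and in late G1 in 36.2%, so part of what early G1 did not list was listed again later.

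**Figure D5:**
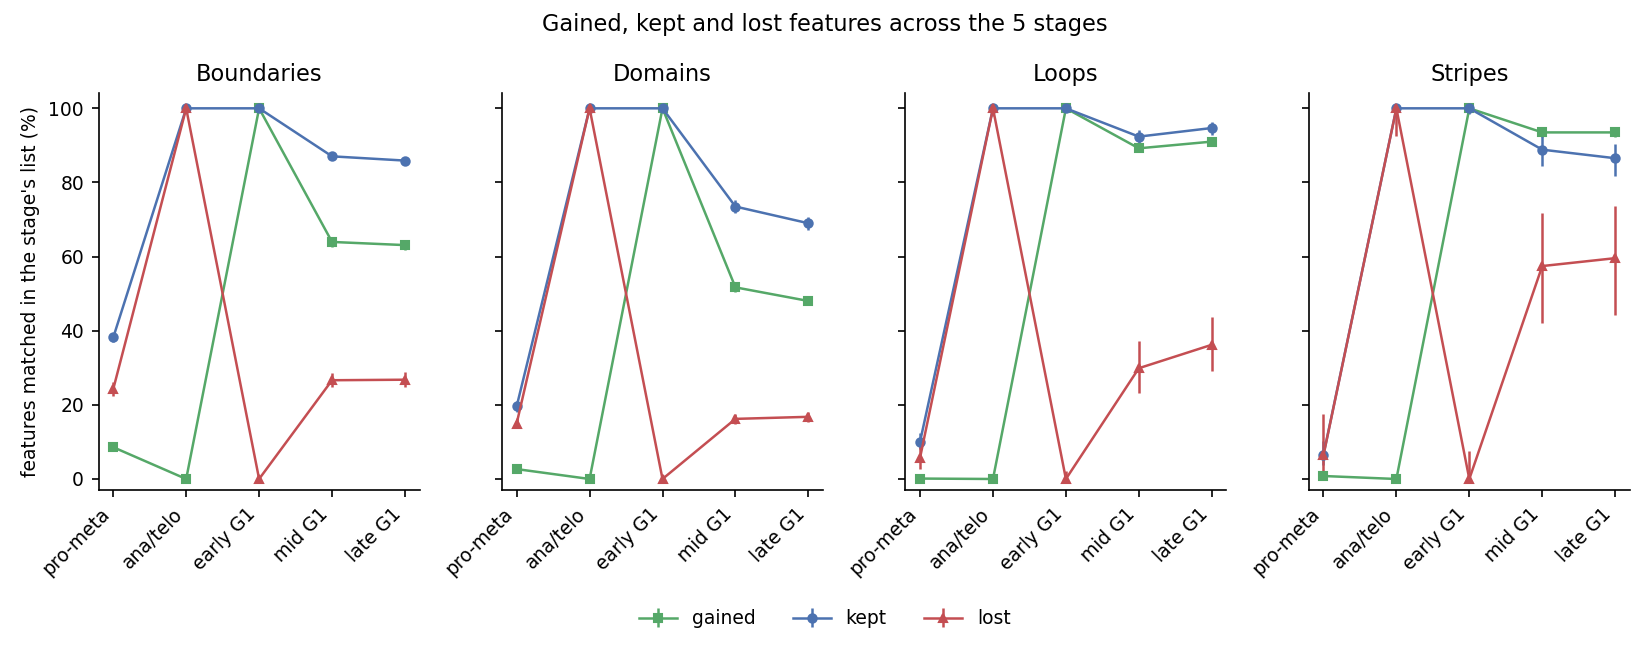
Share (%) of gained, kept and lost boundaries, domains, loops and stripes with a match in the list of each of the 5 stages, in time order, with exact 95% binomial intervals as lines. Values at ana/telophase and early G1 are 0 or 100% by definition; gained loops stay at 89.2% in mid G1, while gained domains are at 51.7%.

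The loops that had been listed since pro-metaphase formed a group of their own. They were 74, or 10.1%, of the kept ana/telophase loops, with a median ana/telophase ratio of 6.81. An ana/telophase CTCF peak lay at neither anchor in 60.8% of them and at both in 14.9%. For the 660 kept loops with no pro-metaphase match, CTCF lay at neither anchor in 12.1% and at both in 55.8%. At the far end of the size range, gained loops over 500 kb, 131 in number, had ana/telophase CTCF at both anchors in 79.4% of cases.

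The gain was spread over all 20 chromosomes in the lists and was uneven along them. The ratio of early-G1 to ana/telophase loops ranged over chromosomes between 4.90 (chromosome 12) and 12.0 (chromosome 16), with a median of 8.00. Gained loops per Mb ranged between 0.604 on the X chromosome and 4.25 on chromosome 11. The share of ana/telophase boundaries kept was lowest on chromosome 11, at 57.6%, and highest on chromosome 18, at 83.1%. The X chromosome had 105 early-G1 loops, against 9 ana/telophase loops, and 16 early-G1 stripes, against 0 in ana/telophase.

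Of the 2573 windows of 1 Mb, 47.7% had no gained loop, while the 5.64% with at least 10 held 28.6% of all gained loops. The fullest windows were chr1:59000001-60000000 and chr18:38000001-39000000, with 19 gained loops each. The window on chromosome 1 held 20 early-G1 loops, against 1 in ana/telophase. The window on chromosome 18 held 19 early-G1 loops, against 0 in ana/telophase. Next was chr2:30000001-31000000, with 18 gained loops, 20 early-G1 loops and 1 ana/telophase loop. At most 1 ana/telophase loop lay in 92.0% of all windows and in 66.2% of the windows with at least 10 gained loops. Gained loops were thus unevenly spread, and the low ana/telophase counts of the 3 fullest windows were common to most windows.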

How the data were processed

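Sorted cells had been processed by in situ Hi-C with the enzyme DpnII, per the labels' protocols. The submitters' processing notes name mm9 as the build, Bowtie2 and HiC-Pro for Hi-C, and MACS2 2.1.0, bedtools 2.27.1, SAMtools 1.7 and Bowtie 0.12.7 for ChIP-seq. The callers of the domain, loop and stripe lists were not given in the sources used here. Samples were grouped by assay and stage from their titles. The deposited lists pool the 2 replicates of a stage, and the peak lists were made from merged and downsampled replicates, per the peak names.

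Domains are listed by start and end in 10 kb bins. For each loop the authors deposited an observed contact signal, an expected signal, a p-value and a cluster size score, per the file headers, and the observed/expected ratio was computed from them. For stripes the deposited strength is an observed/expected ratio, per the file headers. In the horizontal stripe lists the length header holds the short side, so length was taken from the body coordinates. For peaks the authors deposited fold enrichment as a ratio and −log10 q, which were used to describe or filter peaks. The lists give no read totals.

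Boundaries were distinct domain starts and ends, and a domain matched if 1 domain of the other list had both ends within 20 kb. The distance between loop anchors was the gap between their intervals, and a loop's size was taken between the 2 bins of its highest pixel. Stripes matched if anchors of the same direction overlapped. Background shares used every 10 kb bin, or 20 kb windows, over the span of the lists. Python 3.11.15, NumPy 2.4.6, pandas 2.3.3, SciPy 1.17.1 and Matplotlib 3.10.9 were used, and matching and interval code was checked on simulated data. Alternatives were distances of 10 and 40 kb, other overlap rules, lists of equal length, stricter or widened peaks and asynchronous peaks; nesting at 10 and 40 kb was added later, with the values known.

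The naming rule for regions took the 3 longest of each class of domain, loop and stripe, the 3 loops of each class with the highest ratio, and the 3 deepest domains, fullest anchors and fullest 1 Mb windows. Not all of them are described. Members, lists and rules were chosen with earlier results of these data known. Genes and sequences were not used, since the gene tables at hand belong to another build. Capture-C, RNA polymerase II and input were not analysed here.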

Additional observations from a re-analysis of the deposited data

How the results depend on the processing

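At a match distance of 10 kb, 42.9% of early-G1 and 61.7% of ana/telophase boundaries were matched, 19.7% of early-G1 and 32.7% of ana/telophase domains, and 11.1% of early-G1 loops; at 40 kb these were 60.4% and 80.2% of boundaries, 37.8% and 62.2% of domains, and 16.0% of early-G1 loops, with 85.2% of ana/telophase loops. Mergers numbered 194 at 10 kb. Outermost domains alone gave 48.8% of early-G1 and 53.8% of ana/telophase boundaries, and an overlap of 80% gave 41.8% of early-G1 and 66.2% of ana/telophase domains. Matching loops by highest pixels gave 8.83% of early-G1 and 67.0% of ana/telophase loops. Lists of equal length gave 40.1% of early-G1 and 45.7% of ana/telophase loops, and a median gained distance of 140 kb, at which the 2 loop shares were close. Gained loops with a reused anchor were 20.1% at 10 kb and 13.4% with overlap required, and ana/telophase stripes kept were 93.2% with anchors within 20 kb. CTCF at both anchors of gained loops was 71.0% with widened anchors, 57.0% with −log10 q of at least 20 and 65.1% with asynchronous peaks, at gained boundaries 29.5% within 10 kb, and at gained stripe anchors 94.4% with widened anchors. Gained domains around an ana/telophase domain, 36.6% in all, were 38.1% at 10 kb and 34.1% at 40 kb, both chosen after the data had been seen. The other 20 values stayed within their interval or within 1.5 times. No paired analysis was possible because the replicates of a stage share 1 list; for that reason no replicate could be left out.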
